A study of Mus musculus with 20 samples.

Results

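The E2F and DP transcription factors were followed across 4 groups of mouse lenses. All probe sets of E2f1 to E2f8, Tfdp1 and Tfdp2 were taken by gene symbol, which gave 21 of 45037 probe sets and 10 of 18193 genes. No member probe set was annotated to more than 1 gene. Each Affymetrix array read RNA pooled from the left and right lens of 1 mouse, which were freed from the eye by microdissection at stage E17.5 (late gestation) or P0 (the day of birth). Control mice were E2F2-/-. Triple knockout (TKO) mice carried Cry-Cre, E2F1-/-, E2F2-/- and E2F3f/f, so that all 4 groups lacked E2F2, while Cre, the E2F1 null alleles and the floxed E2F3 alleles came together in the TKO groups. Each group held 5 arrays. Cre transgenes of this name are driven by a crystallin promoter and act in lens cells, so the floxed E2F3 allele is removed only where Cre is active, whereas the E2F1 and E2F2 alleles are null in every cell. The study asked what precedes the collapse of lenses that lack these 3 factors.

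E2F proteins bind DNA with a DP partner and set the expression of genes for DNA replication and division. E2F1, E2F2 and E2F3 are known as the activators, E2F4 and E2F5 act mainly as repressors with the pocket proteins RB, p107 and p130, E2F6 represses through Polycomb proteins, and E2F7 and E2F8 repress without a DP partner. In the lens, epithelial cells divide and then leave the cell cycle as they become fibre cells, a step that depends on RB and its control of E2Fs. Several E2F genes are themselves E2F targets.

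The letters that such control would read are shown for the members whose windows held a motif. RefSeq promoter windows (GRCm38.p6, 250 bases before to 50 after an annotated start) were found for 8 of the 10 genes, 12 windows in all, and E2f4 and E2f5 had no entry. The windows were searched on both strands for an E2F motif, any of TTTCCCGC, TTTCGCGC, TTTGCCGC and TTTGGCGC, and for the cell cycle homology region (CHR) motif TTTGAA. These motifs do not overlap in the windows listed. In the lines that follow, capitals mark the motif, or its reverse complement where it runs against the gene.
E2f2, chr4:136172302-136172323, + strand: gcggcatatagTTTGGCGCtaa
E2f3, chr13:29986056-29986085, - strand: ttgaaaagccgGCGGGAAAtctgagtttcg
E2f7, chr10:110745230-110745259, + strand: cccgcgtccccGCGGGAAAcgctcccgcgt
Tfdp1, chr8:13338697-13338726, + strand: gggcgccgaagGCGCGAAAaggcgcgcagg
E2f8 (CHR), chr7:48881600-48881627, - strand: agcgggttaatTTCAAAtcgggggctgg
Windows of 4 member genes (E2f2, E2f3, E2f7 and Tfdp1) held the E2F motif, 5 of 12 windows, while 744 of all 32851 windows (2.26%) did. The CHR motif lay in 3 of 12 member windows (E2f2, E2f3 and E2f8) and in 17.9% of all windows. The 5 windows count the Tfdp1 site in each of its 2 overlapping windows. Neither motif lay in the windows of E2f1, E2f6 or Tfdp2, which had probe sets called between genotypes. The windows of E2f1, E2f8 and Tfdp2 and the second of E2f2 and of E2f3 lie wholly inside the annotated gene. A match is a description of sequence and not a measured binding site. Only exact matches within these windows were sought, so a window without one does not show that its gene lacks a site.

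**Figure D1:**
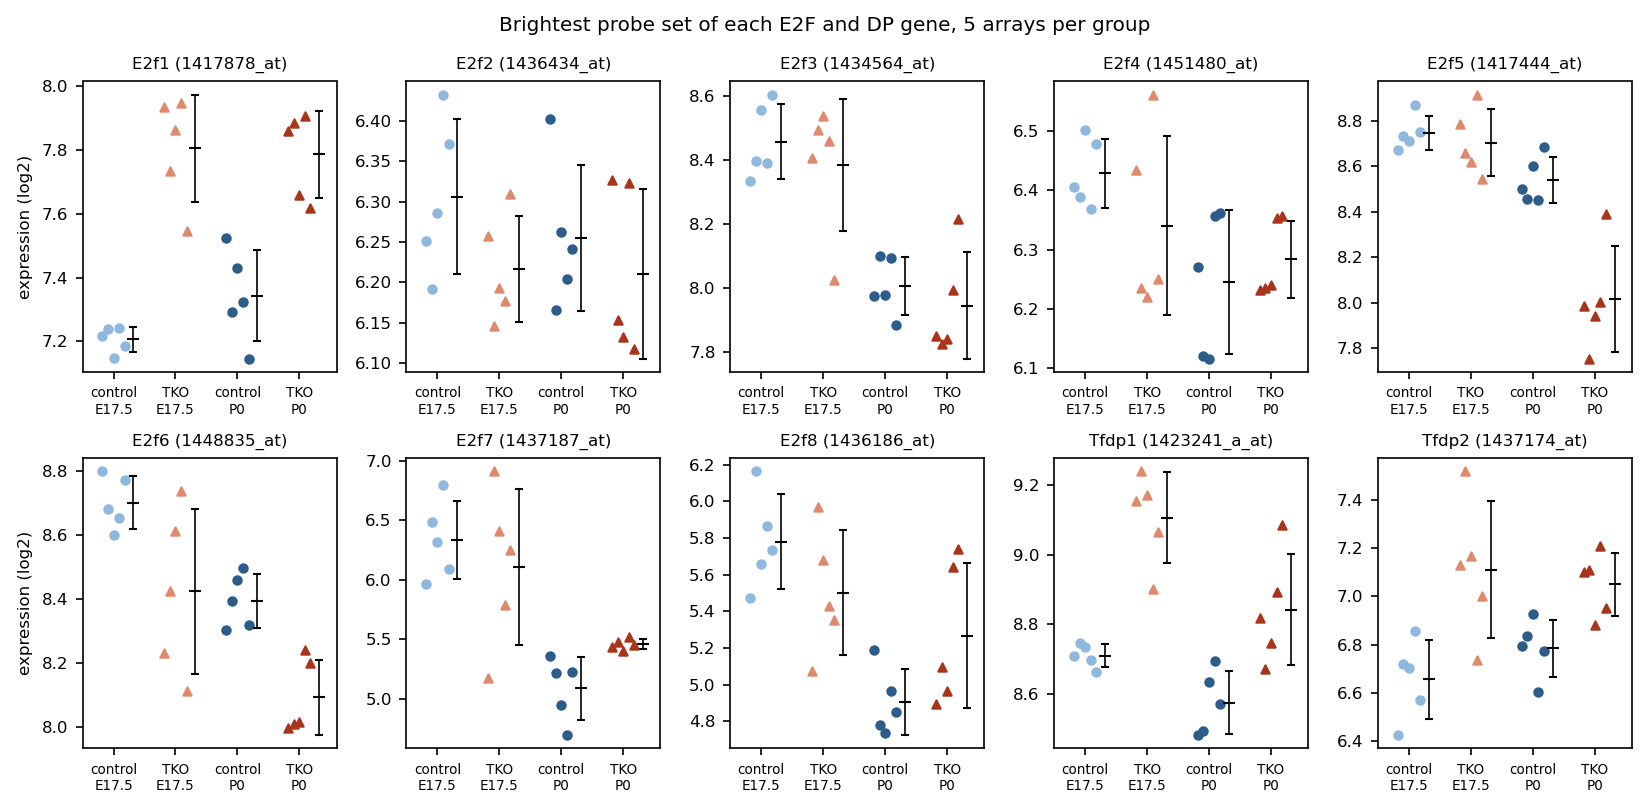
Expression (log2, vertical axis) of the brightest probe set of each of the 10 genes in the 4 groups. Each point is 1 array, and the bar beside it gives the mean with its SD (n = 5). E2f1 lay higher in the TKO groups at both stages, E2f5 and E2f6 were lowest in TKO P0 lenses, and E2f7 and E2f8 were highest at E17.5.

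The arrays differed in ways that the groups do not name. The label calls the cells epithelial, but lens fibre markers were at 13.4 to 13.9 (mean log2 of 8 markers) in all arrays, beside epithelial markers at 8.38 to 9.89 (6 markers). The mean of 13 retina markers lay at 5.66 to 6.59 in control and 5.72 to 7.82 in TKO E17.5 arrays. At P0 it was 4.81 to 6.02 in control and 6.39 to 7.40 in TKO arrays, without overlap, and 11 of 13 markers were called higher. Pigment cell markers were also apart at P0, at 6.26 to 7.0 in control and 7.66 to 8.67 in TKO arrays (5 of 6 called higher), and 5 of 6 epithelial markers were lower and 1 (Pax6) higher. The log2 difference between 5' and 3' Gapdh control probes lay higher in TKO than in control arrays without overlap at both stages (0.10 to 0.20 against -0.060 to -0.019 at E17.5, 0.147 to 0.195 against -0.046 to 0.060 at P0). Replicates 24 and 27 of the TKO E17.5 group were nearer to stage-matched controls (mean correlation over probe sets 0.990 and 0.993) than to the other TKO E17.5 arrays (0.985 and 0.988). Replicate 28 stood furthest from its group (0.981), with vessel markers at 8.34 (6.23 to 7.29 in the other E17.5 arrays), macrophage markers at 7.37 (5.66 to 6.83) and the lowest epithelial (8.59) and fibre (13.4) means at E17.5. Pigment markers ran from 5.97 to 8.16 in the TKO E17.5 group. The part of these markers in the results was tested for retina only, and at P0 that fit cannot separate retina level from genotype. In dissected tissue, fewer cells of a type and less RNA per cell cannot be told apart.

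In TKO lenses 2 of 3 E2f1 probe sets, that of Tfdp1 and 1 of 4 (E17.5) or 2 of 4 (P0) of Tfdp2 were called higher than in control lenses, and at P0 2 of 3 of E2f5 and 1 of 2 of E2f6 were called lower. None of the P0 calls was made with the retina marker mean as a covariate. At P0 that mean did not overlap between genotypes, so the fit cannot tell retina level and genotype apart. At E17.5, 4 of 21 probe sets (19%) were called higher in TKO lenses and 0 lower: 2 of E2f1, that of Tfdp1 and 1 of Tfdp2. By the brightest probe set of each gene, 2 of 10 were higher and 0 lower, beside 1.25% and 1.33% of all genes. Over all probe sets, 3.27% were called at an adjusted p below 0.05 (limma, Benjamini-Hochberg adjustment over 45037), 2.15% higher and 1.12% lower. Among those above the array median in at least 5 arrays (the brighter ones), 5.02% were called, beside 4 of the 18 such member probe sets. Tfdp2 1443962_at counted as brighter only through the TKO arrays, where it was higher. The share of the brighter ones, here and at P0, is therefore no background for it. The arrays of these 4 probe sets did not overlap between genotypes, as those of 7.75% of all probe sets did not. Of all calls, 65.9% were higher, and 77.2% were after each array was centred on its median. At P0, 9 of 21 (42.9%) were called, 6 higher and 3 lower, against 21.3% of all probe sets (10.8% higher and 10.6% lower). Of the 18 brighter member probe sets 9 were called, beside 33.0% of all brighter ones. The arrays of 8 of 21 did not overlap, beside 15.4% of all. P-values measure the spread between samples of separate mice, whose litters are not given.

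**Figure D2:**
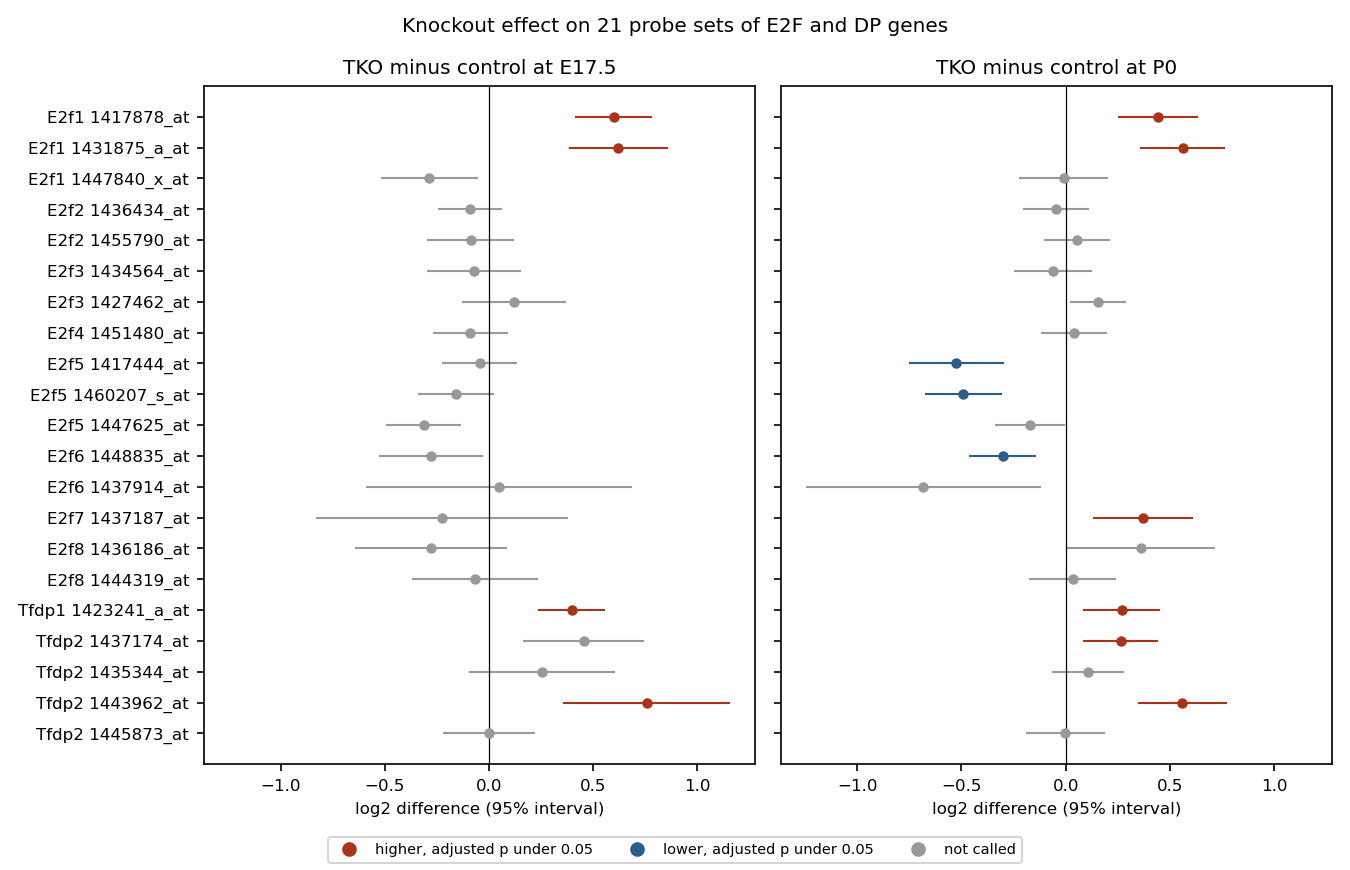
TKO minus control (log2, horizontal axis) for each of the 21 probe sets at E17.5 (left) and P0 (right), with the 95% interval of the fit. Red and blue mark probe sets called higher and lower, grey those not called. The 2 upper E2f1 probe sets are red at both stages, and 2 of 3 E2f5 probe sets are blue at P0.

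Among the activators, E2f1, the factor best known for driving both S phase and cell death, had the clearest change. Its brightest probe set, 1417878_at, read 7.22, 7.24, 7.15, 7.24 and 7.19 in control E17.5 lenses and 7.94, 7.74, 7.86, 7.95 and 7.55 in TKO E17.5 lenses. All 5 TKO arrays lay above all 5 controls, and the difference was 0.60 ± 0.08 (log2, SE; adjusted p = 0.00393), a fold of 1.52. At P0 the values were 7.52, 7.29, 7.43, 7.32 and 7.15 in control and 7.86, 7.89, 7.66, 7.91 and 7.62 in TKO lenses. The groups again did not overlap, with a difference of 0.44 ± 0.09 (adjusted p = 0.00419). By group mean, both TKO groups (7.81 ± 0.17 at E17.5 and 7.79 ± 0.14 at P0, SD, n = 5) differed by less than their spread, as did both control groups (7.34 ± 0.14 at P0 and 7.21 ± 0.04 at E17.5). Both E2f1 calls at E17.5 and both at P0 held when any 1 array was left out.

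The second E2f1 probe set, 1431875_a_at, rose with the first. It went from 6.69 ± 0.06 to 7.31 ± 0.25 at E17.5 (0.62 ± 0.11, adjusted p = 0.0127) and from 6.78 ± 0.14 to 7.34 ± 0.16 at P0 (0.56 ± 0.09, adjusted p = 0.00154). The third, 1447840_x_at, was below the array median in all 20 arrays and did not follow. Its TKO E17.5 arrays read 4.04, 4.03, 3.72, 4.23 and 3.86 against 4.48, 4.24, 4.07, 4.29 and 4.23 in controls, a difference of -0.29 ± 0.11 (adjusted p = 0.144), and at P0 the difference was -0.01 ± 0.10 (adjusted p = 0.962). The suffix of its name marks probes that can also match other transcripts. For the within-array distance of the 2 brighter probe sets no shift between genotypes was detected. It was -0.02 at E17.5 (exact permutation p = 0.714 before and 0.737 after adjustment) and -0.12 at P0 (adjusted p = 0.234). The third was not shown to be above background, which limits what a shift against it shows. Against it, the distance of 1417878_at grew by 0.89 at E17.5 (exact two-sided permutation p = 0.00794, the smallest 5 against 5 arrays allow, adjusted p = 0.03175 over 32 tests) and by 0.45 at P0 (adjusted p = 0.0693). That of 1431875_a_at grew by 0.91 at E17.5 and 0.57 at P0 (exact permutation test, adjusted p = 0.03175 each). The sources used here do not say whether these probes lie inside the deleted part of the gene, so the E2f1 level does not check the loss of the protein.

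E2f2, null in all groups, showed no called genotype difference. Its probe set 1436434_at read 6.31 ± 0.10 and 6.22 ± 0.07 at E17.5 and 6.26 ± 0.09 and 6.21 ± 0.11 at P0 (control and TKO), with 95% intervals of the difference from -0.24 to 0.06 and from -0.20 to 0.11. For 1455790_at the differences were -0.09 ± 0.10 (adjusted p = 0.612) and 0.06 ± 0.07 (adjusted p = 0.652).

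E2f3, the gene that Cre removes, was not called either. Probe set 1434564_at read 8.33, 8.40, 8.56, 8.39 and 8.60 in control and 8.40, 8.49, 8.54, 8.46 and 8.02 in TKO E17.5 lenses. Only replicate 28 of the TKO group lay below the controls, and the difference was -0.07 ± 0.10 (interval -0.30 to 0.15, adjusted p = 0.707). At P0 it was -0.06 ± 0.09 (interval -0.25 to 0.13, adjusted p = 0.684). The dimmer 1427462_at differed by 0.12 ± 0.11 at E17.5 (adjusted p = 0.550). At P0 its TKO arrays, at 5.6 to 5.72, all lay above the controls, at 5.42 to 5.59, but the difference of 0.16 ± 0.06 was not called (adjusted p = 0.0975), except with probe sets below the array median left out (0.0484). Where these probes lie relative to the floxed exon was not given either.

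Of the pocket protein partners, E2f4, the most widely expressed repressor, was not called, at -0.09 ± 0.08 at E17.5 (interval -0.27 to 0.09) and 0.04 ± 0.07 at P0 (interval -0.12 to 0.20). E2f5, which like E2f4 works with p107 and p130, fell at P0. Probe set 1417444_at read 8.50, 8.46, 8.60, 8.45 and 8.68 in control P0 and 7.99, 7.75, 7.94, 8.0 and 8.39 in TKO P0 lenses. Every TKO array was below every control, replicate 22 being the closest, and the difference was -0.52 ± 0.11 (adjusted p = 0.00427), a fold of 0.695. Probe set 1460207_s_at gave -0.49 ± 0.08 (adjusted p = 0.00183), with TKO arrays at 7.81 to 8.23 and controls at 8.38 to 8.51. Both P0 calls held without any 1 array.

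At E17.5 these 2 E2f5 probe sets gave -0.04 ± 0.08 (adjusted p = 0.779) and -0.16 ± 0.08 (adjusted p = 0.275). The third E2f5 probe set, 1447625_at, had the reverse order of sizes: -0.31 ± 0.08 at E17.5 (adjusted p = 0.0629) and -0.17 ± 0.08 at P0 (adjusted p = 0.137). It was called at E17.5 without TKO replicate 27 or 28 (-0.36 and -0.33, adjusted p = 0.0315 and 0.0461), with all 20 arrays in the fit (0.0179) or with dim probe sets left out (0.0485 and 0.0371 at the median and 75th percentile), and at P0 without TKO replicate 21 (-0.22, adjusted p = 0.0409). Within arrays, 1417444_at and 1460207_s_at shifted apart by 0.12 at E17.5 (exact permutation p = 0.00794, adjusted p = 0.03175) and by -0.03 at P0 (adjusted p = 0.627). The change of the E2f5 effect between stages was -0.48 ± 0.14 for 1417444_at and -0.33 ± 0.12 for 1460207_s_at and was not called (adjusted p = 0.119 and 0.203). Without TKO P0 replicate 22 the first was called, at -0.57 (adjusted p = 0.0170).

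**Figure D3:**
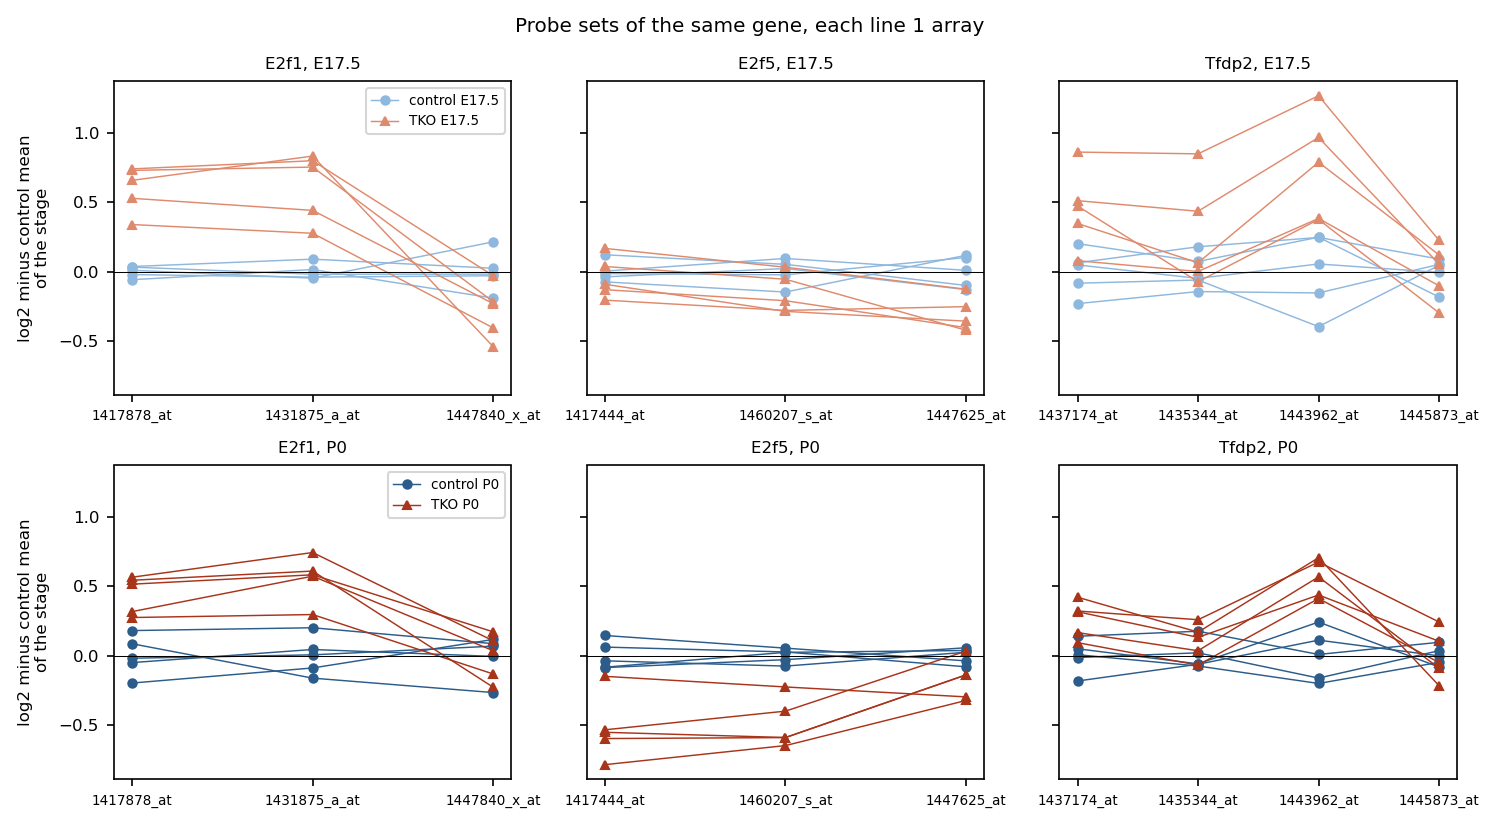
Probe sets of E2f1, E2f5 and Tfdp2 at each stage, as log2 value minus the control mean of that probe set and stage (vertical axis), with 1 line per array. TKO lines of E2f1 are raised for the left and middle probe sets and meet the controls or fall below them for 1447840_x_at, and most of those of Tfdp2 peak at 1443962_at.

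E2f6, the repressor that works without pocket proteins, also fell at P0. Probe set 1448835_at read 8.30, 8.39, 8.46, 8.50 and 8.32 in control and 8.0, 8.01, 8.01, 8.24 and 8.20 in TKO P0 lenses, without overlap. The difference was -0.30 ± 0.07 (adjusted p = 0.0127) and was called without any 1 array. At E17.5 the difference was of like size, -0.28 ± 0.11, but TKO arrays ran from 8.11 to 8.74 across the control range, and it was not called (adjusted p = 0.182). The dimmer probe set 1437914_at spread widely in every group, with an SD of 0.53 in control and 0.57 in TKO E17.5 lenses and of 0.51 and 0.49 at P0. Its P0 difference of -0.68 ± 0.26 was not called (adjusted p = 0.0827). It was called without control replicate 5 (-0.85, adjusted p = 0.0375) or TKO replicate 22 (-0.90, adjusted p = 0.0111).

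E2f7 and E2f8, the atypical repressors that are themselves switched on in S phase, were not called between genotypes at E17.5. E2f7 (1437187_at) read 5.97, 6.49, 6.32, 6.80 and 6.10 in control and 5.18, 6.91, 6.41, 5.79 and 6.25 in TKO E17.5 lenses, so that the TKO arrays held both the lowest and the highest value. The difference was -0.23 ± 0.28 (adjusted p = 0.654). At P0, control arrays read 5.36, 5.22, 4.95, 4.70 and 5.22 and TKO arrays 5.44, 5.48, 5.41, 5.52 and 5.45. The TKO values were all higher and close together, and the difference was 0.37 ± 0.11 (adjusted p = 0.0305). The call was lost without control replicate 6 or 7 or TKO replicate 17, 18, 19 or 21 (0.27 to 0.38, adjusted p = 0.0511 to 0.0768), and with all 20 arrays in the fit (adjusted p = 0.278).

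E2f8 (1436186_at) gave -0.28 ± 0.17 at E17.5 (adjusted p = 0.341) and 0.36 ± 0.16 at P0 (adjusted p = 0.143). In TKO P0 lenses it read 4.90, 5.09, 4.96, 5.64 and 5.74, with replicates 21 and 22 above the rest, against 4.74 to 5.19 in controls. Its second probe set, 1444319_at, was below the array median in all arrays and differed by -0.07 ± 0.14 and 0.03 ± 0.10. The change of the effect from E17.5 to P0 was 0.60 ± 0.32 for E2f7 and 0.64 ± 0.25 for E2f8 (1436186_at), and neither was called (adjusted p = 0.384 and 0.242). Over the family, 0 of 21 probe sets were called for that change by limma, while 3 had an unadjusted p below 0.05 (E2f5 1417444_at and 1460207_s_at and E2f8 1436186_at), against 0.124% of all probe sets called and 14.8% at an unadjusted p below 0.05.

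Of the DP partners, without which E2F1 to E2F6 bind DNA poorly, Tfdp1 was called higher at both stages and Tfdp2 in 1 of 4 probe sets at E17.5 and 2 of 4 at P0. Tfdp1 (1423241_a_at) read 8.71, 8.74, 8.74, 8.70 and 8.66 in control and 9.15, 9.24, 9.17, 8.90 and 9.07 in TKO E17.5 lenses, without overlap, a difference of 0.40 ± 0.07 (adjusted p = 0.0170). The call was lost without control replicate 13 or 15 or TKO replicate 26 (0.39, 0.39 and 0.38, adjusted p = 0.0530, 0.0547 and 0.0519). At P0 the arrays read 8.48, 8.49, 8.63, 8.69 and 8.57 in control and 8.82, 8.67, 8.74, 8.89 and 9.09 in TKO lenses, with TKO replicate 18 just below the highest control. The difference was 0.27 ± 0.08 (adjusted p = 0.0402), and the call was lost without control replicate 1, 5, 6 or 8 or TKO replicate 17, 21 or 22 (0.21 to 0.28, adjusted p = 0.0614 to 0.0909) and with arrays centred on their median (0.25, 0.0644).

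Tfdp2 was measured by 4 probe sets that changed unequally. The largest difference was that of 1443962_at, which read 4.91, 5.31, 5.12, 5.32 and 4.67 in control and 5.44, 6.33, 6.03, 5.45 and 5.86 in TKO E17.5 lenses. No TKO array lay below a control, and the difference was 0.76 ± 0.18 (adjusted p = 0.0482). This call was lost when any control array, or TKO replicate 25, 26 or 28, was left out (0.63 to 0.82, adjusted p = 0.0518 to 0.120), and with an intensity trend (0.0506). At P0 the arrays read 4.85 to 5.30 in control and 5.47 to 5.76 in TKO lenses, and the difference of 0.56 ± 0.10 (adjusted p = 0.00200) was called without any 1 array.

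The brightest Tfdp2 probe set, 1437174_at, differed by 0.45 ± 0.13 at E17.5 (adjusted p = 0.0843) and by 0.26 ± 0.08 at P0 (adjusted p = 0.0394). The E17.5 difference was called without TKO replicate 27 (0.55, adjusted p = 0.0281) and with all 20 arrays in the fit (0.0181). The P0 call was lost without control replicate 1, 5, 7 or 8 or TKO replicate 17, 18 or 21 (0.22 to 0.28, adjusted p = 0.0605 to 0.102), with all 20 arrays in the fit (0.114) and with centred arrays (0.0524). The others were not called: 1435344_at gave 0.26 ± 0.16 and 0.11 ± 0.08, and 1445873_at gave 0.00 ± 0.10 at E17.5 and -0.00 ± 0.09 at P0. Within arrays, 1443962_at moved away from 1445873_at by 0.76 at E17.5 and 0.56 at P0, and the distance of 1435344_at to 1443962_at shifted by -0.50 and -0.45 (exact permutation test, adjusted p = 0.03175 each).

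Over the family, 16 pairs of probe sets of the same gene were compared at both stages. Of the 32 exact permutation tests, 8 had an adjusted p below 0.05 (17 before adjustment), 5 at E17.5 and 3 at P0, and all were in E2f1, E2f5 and Tfdp2. Of the 8, 3 rest on E2f1 1447840_x_at and 2 on Tfdp2 1445873_at, which was above the array median in 4 of 20 arrays. The Gapdh difference given above also lay apart between genotypes at both stages, and its part in the shifts between probe sets was not tested. With 1 array left out the smallest p that the design allows is larger, and the adjusted p of these 8 pairs rose to between 0.0462 and 0.0635. Their shifts kept their sign, from 0.09 to 0.13 for E2f5 and of 0.41 or more in size for E2f1 and Tfdp2. Without TKO P0 replicate 22, 3 more pairs were called at P0: both E2f3 probe sets (-0.28) and each brighter E2f5 probe set against 1447625_at (-0.48 and -0.42, exact permutation test, adjusted p = 0.0462 each).

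The level of some members was also set beside the retina marker mean of each array. At E17.5 the retina marker mean was highest in TKO replicates 25 (7.82) and 26 (7.48) and lowest in replicate 24 (5.72). E2f7 was 6.91, 6.41 and 5.18 in those arrays, E2f8 (1436186_at) 5.97, 5.68 and 5.08, and Tfdp2 (1443962_at) 6.33, 6.03 and 5.44, in the same order as the markers over these 3 arrays. Over all 5 the order held for E2f7 and Tfdp2, while E2f8 was lower in replicate 28 (5.35) than in replicate 27 (5.43). E2f1 (1417878_at) was not in that order: it was 7.94 in replicate 24 and 7.95 in replicate 27, whose retina means (5.72 and 6.11) lay within the control range, and 7.74 in replicate 25. With the retina mean as a covariate at E17.5, E2f1 (0.63 ± 0.09, adjusted p = 0.00864, and 0.66 ± 0.12, 0.0214), Tfdp1 (0.36 ± 0.08, adjusted p = 0.0482) and Tfdp2 1443962_at (0.52 ± 0.12, adjusted p = 0.0472) were still called, and E2f7 and E2f8 were at -0.58 ± 0.17 and -0.46 ± 0.13 (adjusted p = 0.123 and 0.114). Without replicates 25 and 26, a choice made after seeing the data, E2f1 was at 0.60 ± 0.10 (1417878_at, adjusted p = 0.0340) and 0.61 ± 0.12 (1431875_a_at, 0.0569), Tfdp1 at 0.33 ± 0.08 (0.108) and Tfdp2 1443962_at at 0.52 ± 0.17 (0.186), and 1 of 21 was called.

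**Figure D4:**
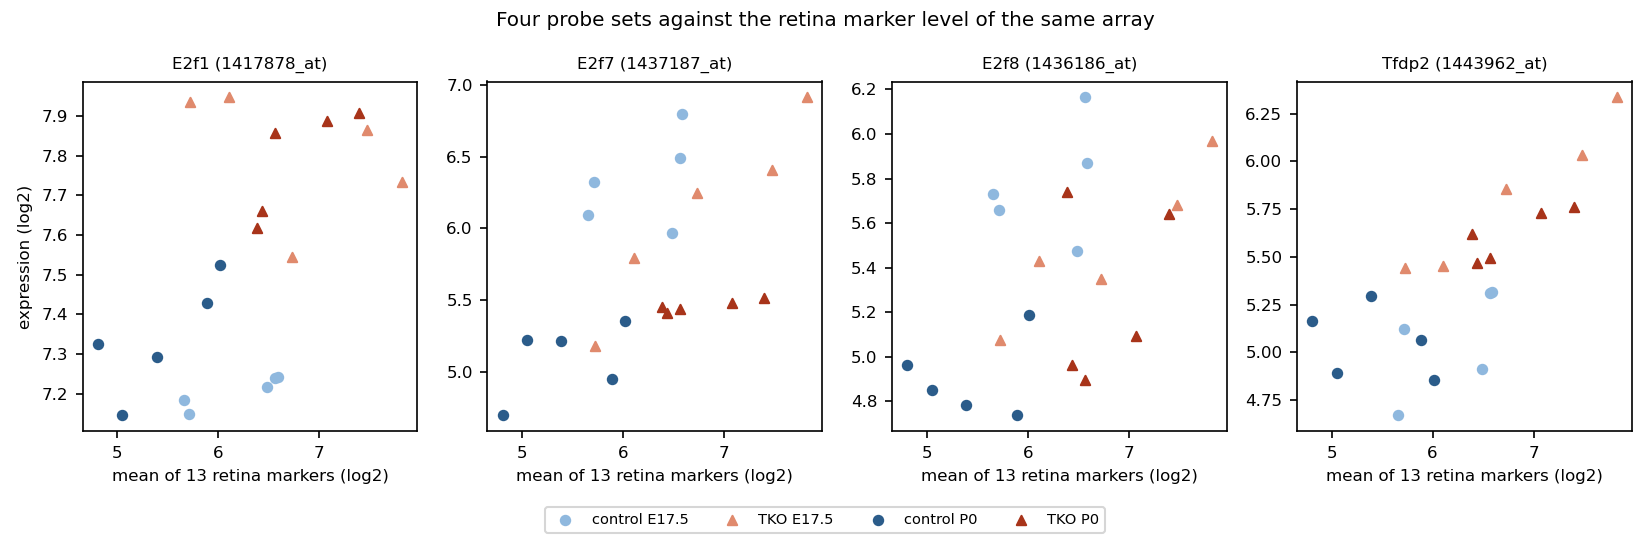
Expression (log2, vertical axis) of 4 probe sets against the mean of 13 retina markers (log2, horizontal axis), 1 point per array, with circles for control and triangles for TKO. The E2f1 points of the TKO E17.5 group lie above those of all controls. No control reaches the retina level of TKO replicates 25, 26 and 28 (6.73 to 7.82, controls up to 6.59), so these have no control at their level. The E2f7 and Tfdp2 points of the TKO E17.5 group rise from left to right over all 5 arrays.

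At P0 the retina mean did not overlap between the genotypes, so a fit with both cannot tell them apart. With it as a covariate, 0 of 21 members were called by limma, and 506 of all probe sets were. The differences were then 0.13 ± 0.13 and 0.35 ± 0.16 for E2f1 (1417878_at and 1431875_a_at, adjusted p = 0.699 and 0.326), -0.39 ± 0.20 and -0.44 ± 0.16 for E2f5 (0.367 and 0.207) and -0.31 ± 0.14 for E2f6 (0.322). For Tfdp1 the difference was 0.39 ± 0.16 (adjusted p = 0.245), for Tfdp2 1443962_at 0.51 ± 0.19 (0.203) and for E2f7 0.12 ± 0.19 (0.826). That of Tfdp2 1437174_at changed sign, to -0.01 ± 0.13 (0.977). The SEs were larger with the covariate than without it, at 0.14 against 0.07 for E2f6 and 0.16 against 0.08 for Tfdp1. The pigment, epithelial and Gapdh values given above moved with genotype at P0 as well, and their part in these differences was not tested.

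From E17.5 to birth, 5 of the 10 genes were called lower in control lenses by their brightest probe set. Of 21 probe sets, 7 (33.3%, median over the 21 of -0.051) were called lower and 0 higher, against 17.2% of all probe sets (7.27% higher and 9.88% lower). Of the 18 brighter member probe sets 7 were called, beside 26.5% of all brighter ones, a difference that was not tested. E2f2 1455790_at and E2f8 1436186_at counted as brighter only through the E17.5 arrays, where they were higher, so that share is no background for them. E2f7 fell by 1.25 (SE 0.16, adjusted p = 0.000414), from 6.34 ± 0.33 to 5.09 ± 0.26, to a fold of 0.422. E2f8 (1436186_at) fell by 0.87 (SE 0.12, adjusted p = 0.000715), from 5.47 to 6.16 down to 4.74 to 5.19 over the arrays. Neither gene's groups overlapped, and 6 of the 21 did not, beside 14.2% of all. E2f3 (1434564_at) fell by 0.45 (SE 0.07, adjusted p = 0.00121) and E2f2 (1455790_at) by 0.41 (SE 0.08, adjusted p = 0.00573). The other probe set of each was not called. That of E2f3, 1427462_at, was at -0.02 ± 0.08 (adjusted p = 0.903), and 1436434_at, the brightest of E2f2, was at -0.05 ± 0.06 (0.634). The labels of these controls name no E2F3 allele. E2f6 (1448835_at) fell by 0.31 (SE 0.06, adjusted p = 0.00547). The dimmer probe sets 1437914_at of E2f6 (0.09 ± 0.27, adjusted p = 0.850) and 1444319_at of E2f8 (-0.11 ± 0.09, 0.450) were not called. The calls of E2f7, E2f8, E2f3 and E2f6 and that of the dimmer E2f2 probe set held without any 1 array. That of E2f6 was lost with all 20 arrays in the fit (adjusted p = 0.0597), and the others were made in every setting that tested their probe set. The filter at the 75th percentile left out those of E2f7, E2f8 and E2f2. With 1 probe set per gene, E2f2 was read by 1436434_at and was not called.

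E2f5 fell by 0.21 (1417444_at, adjusted p = 0.0397) and 0.20 (1460207_s_at, adjusted p = 0.0384) in control lenses, calls lost without 7 and 8 of the 10 arrays in turn. For 1417444_at these were control E17.5 replicates 11, 12, 13 and 15 and control P0 replicates 1, 5 and 7, and for 1460207_s_at control P0 replicate 6 as well (adjusted p = 0.0577 to 0.0965). Both were also lost after quantile normalization (0.0733 and 0.0759) and with all 20 arrays in the fit (0.203 and 0.168). The remaining E2f5 probe set, 1447625_at, went the other way, at 0.14 ± 0.06, and was not called (adjusted p = 0.164). E2f4 was at -0.18 ± 0.07 (adjusted p = 0.0755), E2f1 (1417878_at) at 0.14 ± 0.07 (0.201), Tfdp1 at -0.14 ± 0.06 (0.119) and Tfdp2 (1437174_at) at 0.13 ± 0.09 (0.327). Retina markers were lower at P0 in controls as well (5 of 13 called, 0 higher). With their mean as a covariate E2f7 was at -1.03 ± 0.20 (adjusted p = 0.00894) and E2f8 (1436186_at) at -0.78 ± 0.16 (0.0138), E2f2, E2f3 and E2f6 kept their calls, both E2f5 calls were lost (adjusted p = 0.193 and 0.0716), and E2f4 was called, at -0.29 ± 0.08 (0.0423).

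In TKO lenses the same interval gave 3 probe sets lower and 1 higher of 21, against 11.7% of all probe sets (5.74% higher and 5.97% lower). Of the 18 brighter member probe sets 3 were called, beside 14.4% of all brighter ones. The arrays of 3 of the 21 did not overlap, beside 10.4% of all. Of all calls, 49.0% were higher, and 26.7% were after centring. E2f5 was lower by its brighter probe sets, at -0.69 ± 0.12 (1417444_at, adjusted p = 0.00984) and -0.53 ± 0.10 (1460207_s_at, adjusted p = 0.0140), calls held without any 1 array. The remaining E2f5 probe set, 1447625_at, went the other way, at 0.28 ± 0.09, and was not called (adjusted p = 0.0712). E2f3 (1434564_at) was lower at -0.44 ± 0.12 (adjusted p = 0.0346), close to its -0.45 in controls, a call lost without any 1 of 8 arrays, all but TKO E17.5 replicate 28 and TKO P0 replicate 22 (adjusted p = 0.0521 to 0.0896), and after quantile normalization (0.0549). The other E2f3 probe set, 1427462_at, was at 0.02 ± 0.11 (adjusted p = 0.925). The dim E2f1 1447840_x_at was higher at 0.41 ± 0.11 (adjusted p = 0.0386), a call lost without TKO E17.5 replicate 25, 26 or 28 or TKO P0 replicate 17, 19 or 21 (adjusted p = 0.0515 to 0.0964), after quantile normalization (0.110) and with centred arrays (0.0790).

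E2f7 was at -0.65 ± 0.25 (adjusted p = 0.102) and E2f8 (1436186_at) at -0.23 ± 0.20 (adjusted p = 0.438) in TKO lenses. Their fall in controls and the uncalled change in TKO lenses are not shown to differ, because the difference of these changes is the one tested above. E2f7 was called lower without TKO E17.5 replicate 24 (-0.88, adjusted p = 0.0163) and with the retina covariate (-0.65 ± 0.13, 0.0169), whereas without replicates 25 and 26 it was at -0.28 ± 0.19 (0.399). Of the calls in TKO lenses, E2f5 1417444_at alone was made without those 2 arrays (-0.73 ± 0.15, adjusted p = 0.0499). Other calls gained by leaving out 1 array were E2f6 1448835_at without TKO E17.5 replicate 28 (-0.41, adjusted p = 0.0348), and E2f6 1437914_at (-0.86, 0.0394) and Tfdp1 (-0.33, 0.0366) without TKO P0 replicate 22.

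Genes that work with the E2Fs were read by the brightest probe set of each, beside 2.58% of all genes called at E17.5 (1.25% higher, 1.33% lower) and 23.7% at P0 (12.7% higher, 11% lower). Of the 3 pocket proteins 0 were called at E17.5. At P0, Rbl1, which encodes p107 and is itself an E2F target, was higher by 0.54 ± 0.15 (5.96 ± 0.24 to 6.51 ± 0.33, adjusted p = 0.0251), and Rb1, the retinoblastoma gene, was lower at -0.38 ± 0.10 (8.30 ± 0.16 to 7.93 ± 0.17, adjusted p = 0.0172). The Rbl1 call was lost without control replicate 1, 6 or 7 or TKO replicate 18 or 21. Rbl2, which encodes p130, was at 0.12 ± 0.11 (adjusted p = 0.481). The MuvB and DREAM complex, which joins E2F4 and p130 at cell cycle promoters, had 0 of 8 genes called at either stage. Its smallest p-values were those of Lin37 (-0.16 ± 0.07, adjusted p = 0.202) and Lin9 (0.26 ± 0.12, 0.216) at E17.5 and of Lin54 (-0.26 ± 0.10, 0.0866) and Mybl1 (0.49 ± 0.20, 0.103) at P0. The Polycomb partners of E2F6 had 0 of 10 called at either stage, with Epc1 at -0.14 ± 0.06 (adjusted p = 0.231) and Ring1 at -0.20 ± 0.11 (0.287) at E17.5, and Epc1 at -0.23 ± 0.09 (0.0735) and Max at -0.38 ± 0.14 (0.0739) at P0. At P0, 1 Polycomb partner was called lower without control replicate 8 or TKO replicate 17, and 2 without TKO replicate 21.

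Of 9 cofactors and regulators of E2F proteins, 0 were called at E17.5, where Ep300 was at -0.22 ± 0.09 (adjusted p = 0.161) and Kat2a at -0.34 ± 0.14 (0.177). At P0, 3 were lower: Kat2a, a histone acetyltransferase (-0.65 ± 0.09, adjusted p = 0.000684), Ep300, another (-0.42 ± 0.07, 0.00150), and Trrap, a scaffold protein of such complexes (-0.37 ± 0.10, 0.0236). The acetyltransferases Crebbp (-0.23 ± 0.08, adjusted p = 0.0704) and Kat5 (0.14 ± 0.07, 0.205) were not called, nor were Hcfc1, Skp2, Ccnf and Fzr1. The list's median was -0.232, beside 0.002 over all genes.

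The genes that E2Fs drive were not lower in TKO lenses. Of 24 genes of the G1 and S phases, 2 were higher at E17.5 (Pcna, the DNA polymerase clamp, 0.68 ± 0.15, adjusted p = 0.0353, and Cdc25a, a phosphatase that activates cyclin-dependent kinases, 0.79 ± 0.19, 0.0459) and 0 lower, with a median of 0.429 beside -0.056 over all genes. At P0, 19 of 24 were higher and 0 lower (median 0.774), led by Rrm1 (0.97 ± 0.09, adjusted p = 5.98e-05), a ribonucleotide reductase subunit, Pcna (1.03 ± 0.10, 0.000104) and the replication licensing factor Cdt1 (1.07 ± 0.11, 0.000119). Of 15 genes of G2 and mitosis, 4 were higher at E17.5 (median 0.379), among them Mad2l1 (0.82 ± 0.16, adjusted p = 0.0183), Bub1 (0.64 ± 0.13, 0.0281) and Aurka (0.83 ± 0.17, 0.0283), and 15 of 15 at P0 (median 0.910), led by Mad2l1 (1.19 ± 0.11, 4.86e-05), Cdk1 (1.34 ± 0.18, 0.000507) and Cenpe (0.80 ± 0.12, 0.00102). In control lenses 21 of 24 and 15 of 15 fell from E17.5 to P0, beside 13% of all genes, and in TKO lenses 7 and 8 did, beside 5.72%. For the difference of these changes, 0 of 24 and 0 of 15 were called by limma (medians 0.269 and 0.506), so the counts are not shown to differ.

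These counts also changed with the retina covariate, which at P0 cannot be told apart from genotype. With the retina mean as a covariate, 0 of 24 and 1 of 15 were higher at E17.5 and 4 and 1 at P0, with medians of 0.224, 0.203, 0.655 and 0.761. Without TKO E17.5 replicates 25 and 26, 0 of either list was called at E17.5 by limma (medians 0.180 and 0.161). Without control replicate 10, 11, 12, 13 or 15 or TKO replicate 25 or 26, 0 of the 24 were called at E17.5, and 9 were without TKO replicate 27. Of the 15, 0 were called without control replicate 10 or 15 or TKO replicate 26, 1 without control replicate 11 and 2 without control replicate 12 or 13 or TKO replicate 25. At P0 the counts with 1 array left out were 17 to 21 and 13 to 15.

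Genes of cell death that E2F1 is known to activate showed no common shift. Of 8 measured, 0 were called at E17.5, where Trp73 was at -0.29 ± 0.10 (adjusted p = 0.117) and Ppp1r13b at -0.15 ± 0.07 (0.239). At P0, Pmaip1, which encodes the BH3 protein NOXA, rose from 4.32 ± 0.07 to 5.73 ± 0.55 (1.42 ± 0.21, adjusted p = 0.000727), and Bcl2l11, which encodes BIM, fell from 8.95 ± 0.13 to 8.52 ± 0.26 (-0.43 ± 0.12, 0.0212). The Bcl2l11 call was lost without control replicate 6 or 7 or TKO replicate 17, 18 or 19. The 10 germ line genes, a class that E2F6 silences in somatic cells, lay near the floor (list means 2.89 to 3.09 in all arrays, below the array medians), and none passed the filter at the array median. In them Smc1b (-0.30 ± 0.07, adjusted p = 0.0392) and Tuba3b (-0.28 ± 0.07, 0.0483) were lower at E17.5. Neither was called without any 1 control array or without TKO replicate 25 or 26, 1 was without TKO replicate 24 or 27, and neither was with arrays centred on their median. At P0, when E2f6 was lower, 0 were called, with Stag3 at 0.20 ± 0.08 (adjusted p = 0.120) and Smc1b at -0.18 ± 0.08 (0.134), and 1 was called higher without TKO replicate 22.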

How the data were processed

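The deposited table holds a log2 level for every probe set in all 20 arrays (the scale was read from the values, 1.72 to 15.0). How the authors corrected and normalized it was not given in the sources used here. The levels were used as deposited (array medians 5.05 to 5.25), and precision is limited by the number of arrays. Probe sets were named from the platform annotation, with symbols updated through RefSeq (GRCm38.p6): 34945 had 1 gene, 932 several and 9160 none. The 64 control probe sets were left out.

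The test was lmFit and eBayes of limma 3.58.1 in R 4.3.3, on all 45037 probe sets, with no filter and only the groups compared (all 20 arrays for the change of the effect between stages). All tests were two-sided, with Benjamini-Hochberg adjustment over all probe sets and a call at an adjusted p below 0.05. The fit was tested on simulated data. Errors beside differences are SEs and beside means SDs (n = 5). Probe sets of 1 gene were compared by the within-array difference. Pathway genes were read by the probe set of highest mean over 20 arrays. All probe sets of the 10 genes are named; of other lists, up to 3 called genes per direction and stage by p, or the 2 of smallest p. No array was a copy of another (at most 0.142% of values equal). The members and lists were chosen with earlier results of these data known. Alternatives were quantile normalization, median centring, filters at the 50th and 75th percentile, all 20 arrays, an intensity trend, 1 probe set per gene, a retina covariate and leaving out arrays.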

Additional observations from a re-analysis of the deposited data

Results flagged for a closer look

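In 84 groups of 5 arrays (21 probe sets in 4 groups), 2 held an array far from the others by Dixon's criterion at the 95% level, where chance flags about 1 in 20. E2f3 1434564_at was 8.02 in TKO E17.5 replicate 28, against 8.40 in the next lowest array. E2f6 1437914_at was 5.53 in TKO P0 replicate 22, against 4.60 in the next highest.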

How the results depend on the processing

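No paired analysis was made, because litters are not given and the replicate numbers, which differ between the groups, name no pairs. Of 105 member tests, 24 were called, 6 of them in every setting that tested their probe set, and 14 others were called in some setting. The sign turned in 1 called test: Tfdp2 1437174_at at P0, -0.01226 with the retina covariate, whose cause was not tested. At E17.5, calls over all probe sets numbered 3911 with all 20 arrays, 299 with 1 probe set per gene, 851 with the retina covariate and 402 without TKO replicates 25 and 26, and 561 to 3026 with 1 array left out. Member calls were 2 with 1 probe set per gene (10 tested), 1 without those 2 arrays and 2 to 6 with 1 left out. At P0, calls were 5903 at the 75th percentile, 4603 with 1 probe set per gene and 506 with the retina covariate (0 members), and 7193 to 10758 with 1 array left out (6 to 9 members). For the change of the effect, calls were 102 after quantile normalization, 164 after centring, 96 at the array median, 19 with 1 probe set per gene, 4 with the retina covariate and 474 without both arrays, and 0 to 1016 with 1 left out (0 to 1 member). For control lenses between stages they were 3295 with all 20 arrays (4 members), 4236 with 1 probe set per gene and 4315 with the retina covariate, and 5 to 7 members with 1 left out. For TKO lenses they were 3499 and 1545 at the 2 filters, 12212 with all 20 arrays (9 members), 2644 with 1 probe set per gene (2 members) and 562 without both arrays (1 member), and 1226 to 7717 with 1 left out (2 to 6 members). Fewer probe sets tested sets part of these counts; other causes were not tested.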
